A study of Rattus norvegicus with 24 samples.

Results

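Granins, the precursor protein Vgf and the enzymes that cut and trim prohormones make up the regulated secretory cargo and processing machinery of an insulin-secreting cell. A list of 10 such genes was looked up by symbol in 6 deposited tables of RNA-seq counts from INS-1 cells, a rat insulinoma line that makes and secretes insulin. The tables held a row for 7 of the 10 genes, among 26404 genes in all: the granins and granin-like proteins Vgf, Scg2, Scg3, Scg5 and Chgb, and the enzymes Pam and Pcsk2. Chga, Pcsk1 and Cpe had no row under these symbols and were not analysed here. Cells had been kept in medium with 3 mM glucose for 90 min and moved to 11 mM glucose, a step that all groups shared. They were then given BMS-21 at 1 µM, GLP-1 at 100 nM or, as Control, an equivalent amount of the solvent DMSO, for 6 h or 1 h, with 4 libraries in each of the 6 groups. GLP-1 is the gut hormone that raises cyclic AMP in beta cells through its own receptor, and BMS-21 is known here only by its code name. The labels do not say whether the 4 libraries of a group came from separate cultures, so p-values measure the spread between these libraries, all from a single tumour line.

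In neuroendocrine cells, granins are acidic, calcium-binding proteins that aggregate in the trans-Golgi and help to form dense-core granules. Inside the granule, convertases cut prohormones at pairs of basic residues, carboxypeptidases trim the exposed residues, and an amidating enzyme modifies the ends of some peptides. Several of these genes are known targets of cyclic AMP signalling through a promoter element, the cyclic AMP response element (CRE), which the transcription factor CREB binds.

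The stretches of 150 bases before the annotated start sites are shown for 4 of the genes, which differ in this element. These 4 were chosen with their responses known. Whether the element had a part in any response was not tested. The letters are from RefSeq on the GRCr8 assembly, which had 1 start site for each of the 7 genes, and are read 5′ to 3′ along the gene. Capitals mark the full element TGACGTCA or its shorter core TGACG.
Vgf (chr12:25277021-25277170, minus strand): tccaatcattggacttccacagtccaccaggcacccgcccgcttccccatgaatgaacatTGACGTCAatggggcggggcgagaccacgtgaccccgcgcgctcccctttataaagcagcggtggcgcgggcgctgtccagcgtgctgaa
Scg2 (chr9:88256867-88257016, minus strand): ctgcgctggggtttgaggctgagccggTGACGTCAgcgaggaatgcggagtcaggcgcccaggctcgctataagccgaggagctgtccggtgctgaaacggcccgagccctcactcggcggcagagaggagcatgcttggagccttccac
Pam (chr9:105570218-105570367, plus strand): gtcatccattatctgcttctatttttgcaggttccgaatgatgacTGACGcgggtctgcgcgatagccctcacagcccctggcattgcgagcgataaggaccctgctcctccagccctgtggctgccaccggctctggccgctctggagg
Chgb (chr3:140496562-140496711, plus strand): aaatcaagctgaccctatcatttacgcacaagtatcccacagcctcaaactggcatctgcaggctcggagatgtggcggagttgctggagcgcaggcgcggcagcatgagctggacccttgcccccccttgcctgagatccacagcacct
Within windows of 300 bases, from 250 before to 50 after the start site and searched on both strands, the full element TGACGTCA occurred in 2 of the 7 genes. It began at -90 in Vgf and at -123 in Scg2, and it was present in 1.83% of 33469 promoter windows of the same length. Each full element also holds the core TGACG on both strands. The core occurred in 6 of the 7 genes, Chgb being the one with no match, and in 21.2% of all windows. In Pam it began at -105, in Scg3 at -69 and in Pcsk2, on the opposite strand, at -57. Scg5, the gene that did not rise at 6 h, had the core at -7 and, on the opposite strand, at 15. The letters TATAAA occurred only in Vgf among the 7, at -41 and on the opposite strand at -43, and in 14.2% of all windows. These are matches of letters and do not show a bound site.

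Whole reads could be recovered from every deposited value, and the 24 libraries held 10667350 to 13148970 reads. All 10 beta-cell markers that were checked had reads and summed to 12310 to 15255 CPM (counts per 1000000 reads after TMM scaling, the unit of level used throughout), whereas 18 markers of other islet, acinar, duct, stromal and blood cells summed to 10.3 to 19.4 CPM. At 6 h the second sum was 14.1 to 19.4 CPM with BMS-21, 13.5 to 14.7 CPM with GLP-1 and 12.3 to 13.8 CPM in Control cells, and at 1 h it was 15.0 to 16.4 CPM with BMS-21, 13.6 to 17.0 CPM with GLP-1 and 10.3 to 13.4 CPM in Control cells. At 1 h the libraries of each agent were thus all above the Control libraries, as they were for BMS-21 at 6 h. Its part in the results was not tested. The highest of these markers over the 24 libraries were Gcg at 6.58 to 14.1 CPM, Sox9 at 1.14 to 5.54 CPM and Ghrl at 0.975 to 2.39 CPM. Sox9 was called higher at 1 h, by 0.89 on the log2 scale with BMS-21 (adjusted p = 0.0137, limma) and 1.09 with GLP-1 (adjusted p = 0.0152, limma). Irx2 had 0 reads in every library, and Sst, Ppy, Cpa1, Krt19 and Ptprc had at most 1 read in any. Libraries with the same replicate number deviated together in all 9 pairs of groups that were compared, those of the same time or the same agent, and replicates 3 and 4 stood apart from replicates 1 and 2 in all 6 groups. Tests with the replicate number as a block are therefore given beside a result where they change it.

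**Figure D1:**
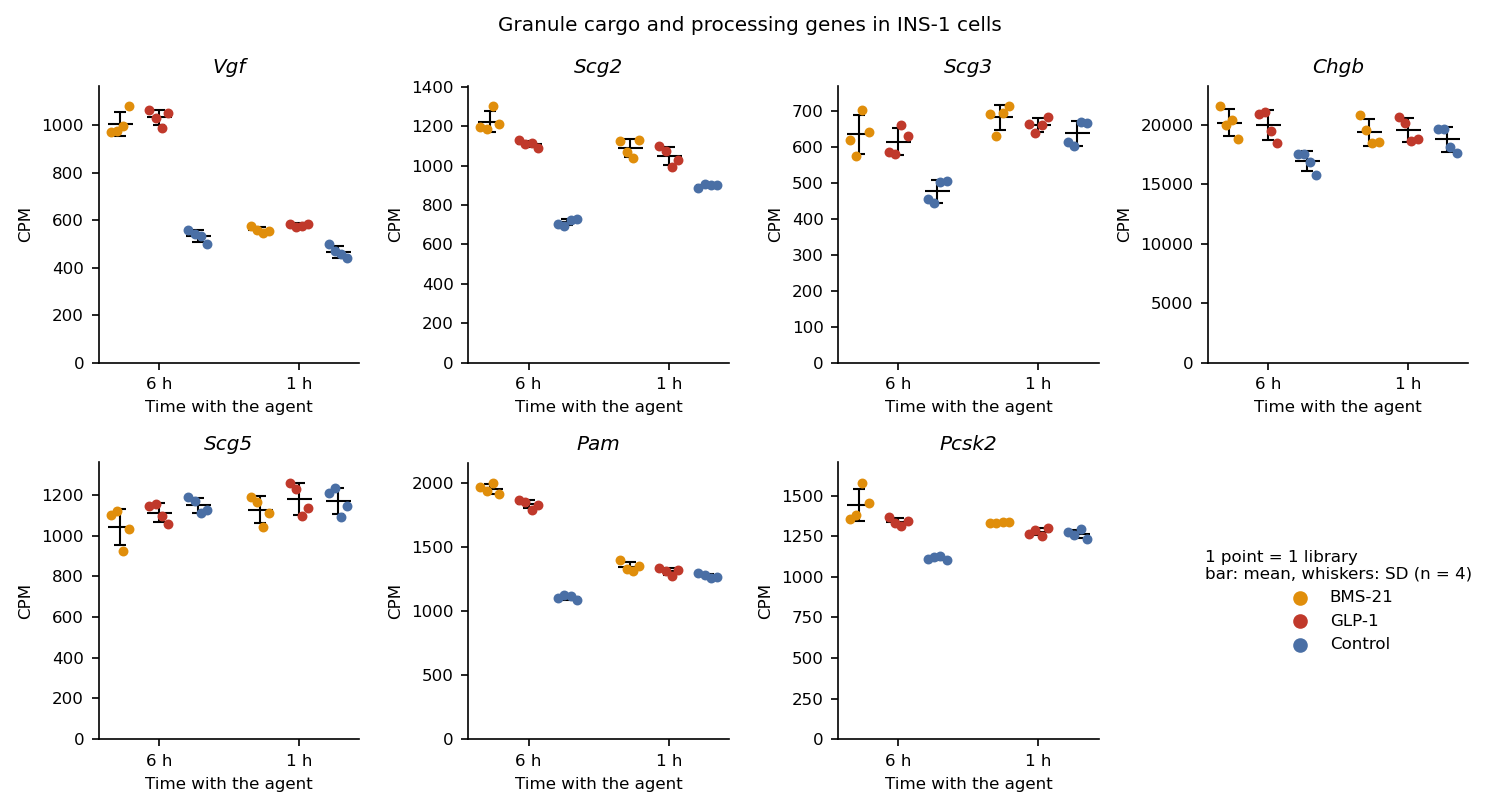
CPM of the 7 genes in each of the 24 libraries, with 6 h to the left of 1 h, BMS-21 in orange, GLP-1 in red and Control in blue; points of a group run from replicate 1 to 4, and the bar and whiskers are the mean and SD of 4 libraries. At 6 h every library with an agent lay above every Control library for 6 genes, and Scg5 was the gene whose groups overlapped.

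After 6 h with either agent, 6 of the 7 genes were higher than in Control cells, and Scg5 was the exception. Vgf changed most, followed by Pam and Scg2, with folds of 1.88, 1.77 and 1.72 with BMS-21 and of 1.94, 1.66 and 1.56 with GLP-1. Scg3, Pcsk2 and Chgb had lower folds, 1.33, 1.29 and 1.19 with BMS-21 and 1.29, 1.20 and 1.18 with GLP-1. At 1 h only Vgf and Scg2 had passed the threshold, an adjusted p under 0.05 in limma's test over all genes, with each agent; with the replicate block the counts at 1 h were 6 higher and 1 lower with BMS-21 and 3 higher with GLP-1. Both agents were set against the same Control libraries, so their responses are not independent of each other.

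These counts can be read against all genes tested. With BMS-21 at 6 h, 16.8% of 12640 genes rose and 16.8% fell, against 6 and 1 of the 7 genes here. With GLP-1 at 6 h, 16.2% of 12641 genes rose and 15.6% fell, against 6 and 0. At 1 h with BMS-21, 3.54% of 12697 genes rose and 2.37% fell, against 2 and 0 of the 7 genes. With GLP-1 at 1 h, 4.17% of 12715 genes rose and 2.41% fell, against 2 and 0. All libraries with the agent lay above all Control libraries for 6 of the 7 genes with BMS-21 at 6 h, a pattern of 16.2% of all genes, and for the same 6 with GLP-1 at 6 h, a pattern of 15.6% of all genes. The median log2 change over the 7 genes was 0.41 with BMS-21 and 0.37 with GLP-1 at 6 h, and 0.081 with BMS-21 and 0.056 with GLP-1 at 1 h. Over all genes tested, these 4 medians lay between -0.0015 and 0.00055. All 7 genes passed the filter on low values in every comparison.

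**Figure D2:**
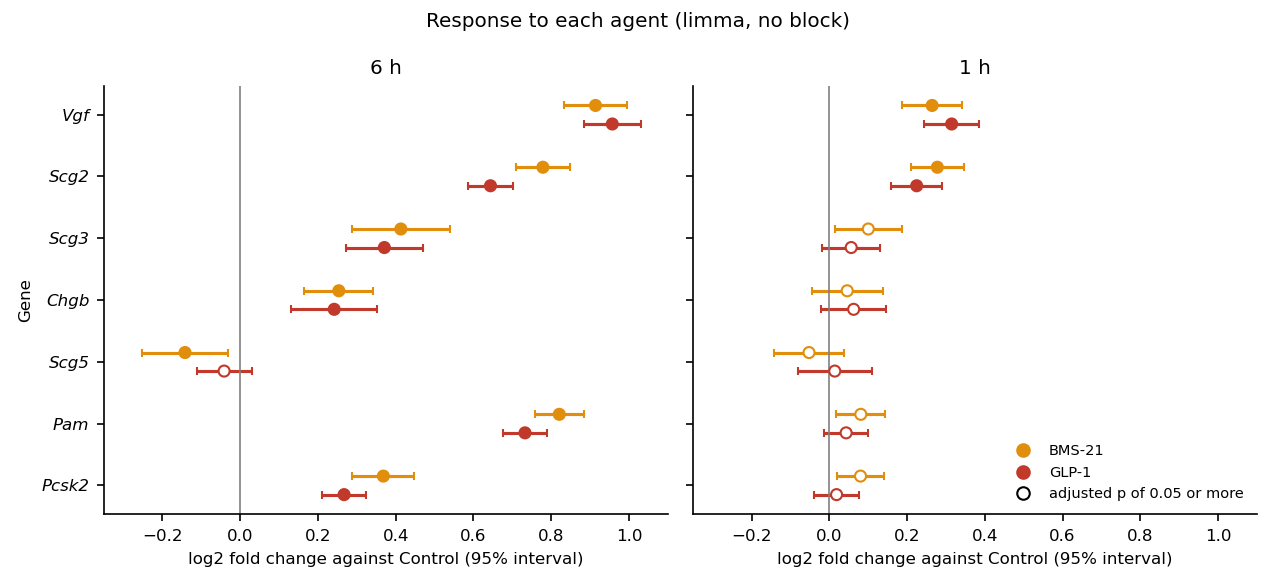
Log2 fold change of each gene against Control with its 95% interval, at 6 h on the left and 1 h on the right; orange is BMS-21, red is GLP-1, and open circles have an adjusted p of 0.05 or more. The 6 genes called higher at 6 h lie between 0.24 and 0.96, while at 1 h only Vgf and Scg2 are filled, in the fit without a block.

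Vgf encodes a neuroendocrine precursor that is cut into several secreted peptides. At 6 h Vgf stood at 972, 974, 997 and 1078 CPM with BMS-21, 1063, 1028, 989.6 and 1052 CPM with GLP-1 and 559, 541, 534 and 501 CPM in Control cells. The 8 libraries with an agent lay far above the 4 Control libraries, and the 2 agents overlapped. The log2 change was 0.91 ± 0.039 (SE) with BMS-21 (adjusted p = 6.64e-14, limma) and 0.96 ± 0.035 with GLP-1 (adjusted p = 2e-14, limma). The libraries of 1 h held 577, 558, 548 and 556 CPM with BMS-21, 585, 570.3, 576 and 585 CPM with GLP-1 and 500.0, 469.7, 459 and 440.2 CPM in Control cells. Here too each agent's libraries were all above the Control libraries. The log2 change at 1 h was 0.26 ± 0.037 with BMS-21 (adjusted p = 2.12e-05, limma) and 0.31 ± 0.035 with GLP-1 (adjusted p = 1.67e-07, limma).

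Scg2 encodes secretogranin II, the granin from which the peptide secretoneurin is cut. Scg2 was at 1197, 1184, 1300.4 and 1212 CPM with BMS-21, 1131, 1108, 1114 and 1092 CPM with GLP-1 and 705, 694, 726 and 727 CPM in Control cells at 6 h. No library of one group overlapped another at this time: BMS-21 was highest, GLP-1 next and Control lowest. This was a log2 change of 0.78 ± 0.033 with BMS-21 (adjusted p = 6.98e-14, limma) and 0.64 ± 0.028 with GLP-1 (adjusted p = 2.73e-13, limma). At 1 h the values were 1123, 1068, 1037 and 1128 CPM with BMS-21, 1101, 1073, 992 and 1031 CPM with GLP-1 and 888, 908, 902 and 899 CPM in Control cells. The agents overlapped each other and stood above Control. The changes at 1 h were 0.28 ± 0.033 with BMS-21 (adjusted p = 1.82e-06, limma) and 0.22 ± 0.032 with GLP-1 (adjusted p = 1.06e-05, limma).

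Scg3 encodes secretogranin III, a granin that binds granule membranes and chromogranin A. Its levels at 6 h were 618, 574, 703 and 640.2 CPM with BMS-21, 586, 580.5, 659 and 628 CPM with GLP-1 and 453, 443, 502 and 505 CPM in Control cells. Each agent's libraries were above all Control libraries, although replicates 3 and 4 were higher than replicates 1 and 2 within each group. The log2 change was 0.41 ± 0.058 with BMS-21 (adjusted p = 0.000104, limma) and 0.37 ± 0.047 with GLP-1 (adjusted p = 9.22e-06, limma). After 1 h Scg3 was at 691, 631, 692 and 712 CPM with BMS-21, 662, 637, 659 and 683 CPM with GLP-1 and 613, 602, 667 and 665 CPM in Control cells. All 3 groups overlapped at 1 h. Neither change passed without a block, at 0.10 ± 0.041 with BMS-21 (adjusted p = 0.217, limma) and 0.056 ± 0.036 with GLP-1 (adjusted p = 0.519, limma); with the block, that of BMS-21 passed (adjusted p = 8.83e-05). Leaving out BMS-21 replicate 2, the lowest of its group, also brought the BMS-21 change past the threshold, at 0.14 (adjusted p = 0.0439, limma).

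Chgb encodes chromogranin B, a core granule matrix protein, and took 1.61% to 2.12% of all reads in a library. At 6 h it stood at 21538, 19996, 20423 and 18775 CPM with BMS-21, 20934, 21053, 19452 and 18470.3 CPM with GLP-1 and 17574, 17504, 16884 and 15761 CPM in Control cells. The Control libraries were the lowest, and the 2 agents overlapped. On the log2 scale Chgb changed by 0.25 ± 0.042 with BMS-21 (adjusted p = 9.06e-05, limma) and 0.24 ± 0.049 with GLP-1 (adjusted p = 0.00368, limma). The values at 1 h were 20836, 19572, 18484 and 18527 CPM with BMS-21, 20662, 20121, 18648 and 18809 CPM with GLP-1 and 19673, 19670.0, 18165 and 17608 CPM in Control cells. The 3 groups overlapped, and in each of them replicates 1 and 2 were above replicates 3 and 4. The changes at 1 h were 0.046 ± 0.043 with BMS-21 (adjusted p = 0.723, limma) and 0.063 ± 0.039 with GLP-1 (adjusted p = 0.521, limma); with the replicate block both passed, at adjusted p = 0.00392 with BMS-21 and 0.000192 with GLP-1.

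Scg5 encodes a small secretory chaperone that binds the proform of the convertase encoded by Pcsk2 and is needed for its maturation. Levels of Scg5 were 1098, 1118, 923 and 1031 CPM with BMS-21, 1144, 1157, 1096 and 1055 CPM with GLP-1 and 1190.2, 1169, 1109.7 and 1123 CPM in Control cells at 6 h. The groups overlapped, and replicate 3 with BMS-21 was the lowest library. Its log2 change was -0.14 ± 0.052 with BMS-21 (adjusted p = 0.0479, limma) and -0.041 ± 0.034 with GLP-1 (adjusted p = 0.385, limma). The fall with BMS-21 was small and close to the threshold: it was lost when any 1 of 5 libraries was left out, namely replicates 3 and 4 with BMS-21 or replicates 1, 2 and 4 of Control, with adjusted p up to 0.122 in limma. With the replicate block its adjusted p was 4.83e-05. At 1 h Scg5 was at 1189, 1165, 1042 and 1109 CPM with BMS-21, 1258, 1229, 1094 and 1136 CPM with GLP-1 and 1209, 1234, 1093 and 1144 CPM in Control cells. All 3 groups overlapped, and in each of them replicates 1 and 2 were above replicates 3 and 4. The changes at 1 h were -0.052 ± 0.043 with BMS-21 (adjusted p = 0.676, limma), which passed with the block (adjusted p = 0.0357), and 0.014 ± 0.045 with GLP-1 (adjusted p = 0.942, limma).

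Of the enzymes, Pam encodes the monooxygenase that amidates the ends of peptides. At 6 h Pam reached 1973, 1942, 2004 and 1914 CPM with BMS-21, 1867, 1857, 1796 and 1831 CPM with GLP-1 and 1103, 1127, 1118 and 1088 CPM in Control cells. No group overlapped another, with BMS-21 highest and Control lowest. The log2 change was 0.82 ± 0.030 with BMS-21 (adjusted p = 5.63e-15, limma) and 0.73 ± 0.027 with GLP-1 (adjusted p = 2e-14, limma). The 1 h libraries had 1398, 1329.9, 1314 and 1352 CPM with BMS-21, 1339.5, 1315, 1274 and 1322 CPM with GLP-1 and 1298, 1280.1, 1260.0 and 1269.6 CPM in Control cells. The BMS-21 libraries were all above Control at 1 h, and the GLP-1 libraries overlapped both. The changes were 0.081 ± 0.030 with BMS-21 (adjusted p = 0.149, limma; 0.000202 with the block) and 0.043 ± 0.028 with GLP-1 (adjusted p = 0.521, limma).

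Pcsk2 encodes the convertase that, in beta cells, takes part in cutting proinsulin. Pcsk2 stood at 1354, 1383, 1579 and 1457 CPM with BMS-21, 1370.0, 1332, 1315 and 1346 CPM with GLP-1 and 1111, 1126, 1127 and 1104 CPM in Control cells at 6 h. The Control libraries were the lowest. The agents overlapped narrowly, through replicate 1 with BMS-21 at 1354 CPM, below the highest GLP-1 library at 1370.0 CPM. The log2 changes of Pcsk2 were 0.37 ± 0.038 with BMS-21 (adjusted p = 1.26e-07, limma) and 0.27 ± 0.027 with GLP-1 (adjusted p = 1.08e-07, limma). At 1 h Pcsk2 was at 1332, 1335, 1337 and 1337 CPM with BMS-21, 1267, 1289.9, 1253 and 1304 CPM with GLP-1 and 1277, 1255, 1294 and 1234 CPM in Control cells. The BMS-21 libraries lay within a narrow range above all others. The changes at 1 h were 0.080 ± 0.029 with BMS-21 (adjusted p = 0.131, limma; 0.000274 with the block) and 0.019 ± 0.028 with GLP-1 (adjusted p = 0.855, limma). On GRCr8, Pam overlaps the gene LOC120094586 and Pcsk2 overlaps the pseudogene Wbp4-ps1. The library kit does not mark strand, and only whole gene spans were compared. Whether reads of these neighbours were counted for Pam or Pcsk2 was not tested.

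With the replicate block, the test at 1 h called 6 of the 7 genes higher with BMS-21 and Scg5 lower, against 6.7% of all genes higher and 5.51% lower in the same fit. With GLP-1 the blocked fit at 1 h called 3 genes higher, Vgf, Scg2 and Chgb, against 6.74% of all genes higher and 5.16% lower. The 5 genes added with BMS-21 changed by between -0.052 and 0.10 on the log2 scale. Every library with BMS-21 lay above every Control library for 4 genes at 1 h, Vgf, Scg2, Pam and Pcsk2, a pattern that 5.65% of all genes had. With GLP-1 the same held for Vgf and Scg2, and for 6.02% of all genes.

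Most of these genes differed between 6 h and 1 h in cells that had only the solvent. Between the Control groups, 5 of the 7 genes were lower at 6 h than at 1 h, and Vgf was higher. Scg3 fell most, to 476 ± 32 CPM at 6 h (SD, n = 4), against 637 ± 34.3 CPM at 1 h, a log2 change of -0.43 ± 0.056 (adjusted p = 6.11e-07, edgeR's quasi-likelihood test on 24 libraries). Scg2 stood at 713 ± 15.9 CPM at 6 h, against 899 ± 8.72 CPM at 1 h, with a change of -0.34 ± 0.034 (adjusted p = 5.68e-11, edgeR). For the enzymes the changes were -0.21 ± 0.028 for Pam (adjusted p = 5.16e-08, edgeR) and -0.19 ± 0.033 for Pcsk2 (adjusted p = 8.93e-06, edgeR). Chgb changed by -0.16 ± 0.050 (adjusted p = 0.0108, edgeR), which became 0.052 without Control replicate 4 at 6 h. Vgf went the other way, at 534 ± 24.3 CPM at 6 h and 467 ± 25 CPM at 1 h, a change of 0.19 ± 0.037 (adjusted p = 5.67e-05, edgeR). Scg5 did not pass, with -0.033 (95% interval -0.15 to 0.081). Over 13114 genes tested, 26% were higher and 26.9% lower at 6 h, so a change with time was common. The time since the change of glucose and the time with the solvent cannot be told apart.

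The order of levels shows how the differences by agent and by time combine, and is given as a description. Scg2, Pam, Pcsk2 and Chgb were lowest in Control cells at 6 h and highest with BMS-21 at 6 h. Vgf was lowest in Control cells at 1 h and highest with GLP-1 at 6 h, where it averaged 1033 ± 32.5 CPM (SD, n = 4), next to 1005 ± 50 CPM with BMS-21; these neighbours overlapped. Scg3 with an agent was not above its level of 1 h: it averaged 634 ± 53.5 CPM with BMS-21 and 613 ± 37.3 CPM with GLP-1 at 6 h, against 682 ± 35.1 and 660.1 ± 18.8 CPM with the same agents at 1 h. For Scg3 only the Control group at 6 h was separate from its neighbour in the order. Unlike Scg3, Pcsk2 with GLP-1 was above its level of 1 h, at 1341 ± 23.3 CPM at 6 h and 1278 ± 23 CPM at 1 h. Its lowest GLP-1 library at 6 h, at 1315 CPM, was above the highest at 1 h, at 1304 CPM. Pcsk2 in Control cells fell to 1117 ± 11.1 CPM at 6 h, against 1265 ± 26.3 CPM at 1 h. For Scg5, every group overlapped its neighbour in the order.

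**Figure D3:**
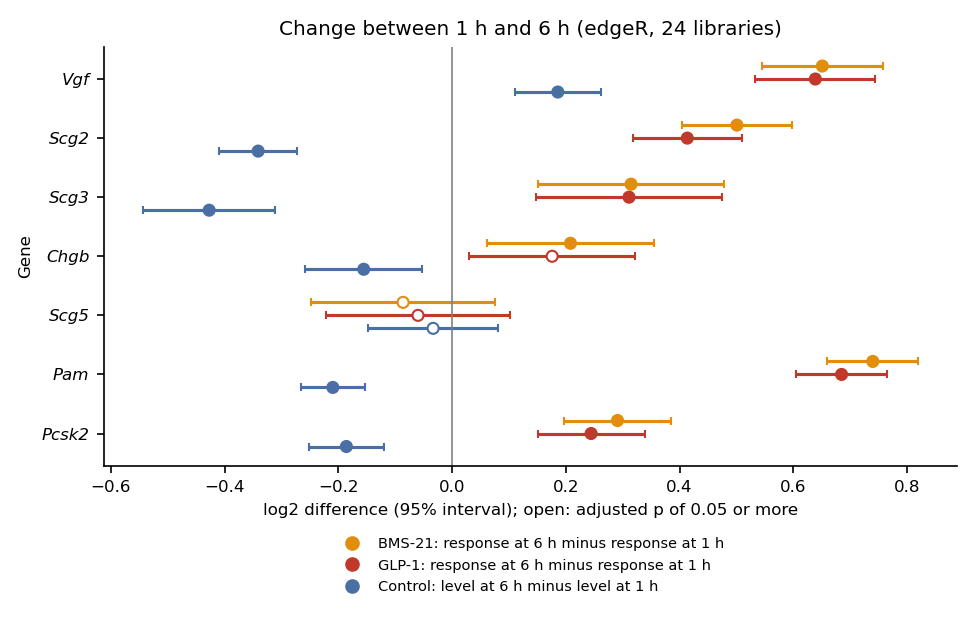
Log2 differences between 6 h and 1 h with 95% intervals, from edgeR on all 24 libraries: the response to BMS-21 (orange) or GLP-1 (red) at 6 h minus that at 1 h, and the Control level at 6 h minus that at 1 h (blue); open circles have an adjusted p of 0.05 or more. For Scg2, Scg3, Chgb, Pam and Pcsk2 the Control difference lies below 0 and the response differences above it, whereas all 3 lie above 0 for Vgf. The Control difference is subtracted within each response difference, so opposite signs are partly built in.

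Whether the response to an agent differed between 6 h and 1 h was tested as an interaction in the same edgeR model. With BMS-21, 6 of the 7 responses were higher at 6 h than at 1 h, against 10.8% of all genes higher and 10.9% lower. With GLP-1, 5 of the 7 were higher, against 8.3% of all genes higher and 9.01% lower. Pam had the greatest difference with each agent, 0.74 ± 0.039 on the log2 scale with BMS-21 (adjusted p = 2.38e-17, edgeR) and 0.69 ± 0.039 with GLP-1 (adjusted p = 3.05e-16, edgeR). Vgf followed with 0.65 ± 0.052 and 0.64 ± 0.052, then Scg2 with 0.50 ± 0.047 and 0.41 ± 0.047, each pair given for BMS-21 and then GLP-1, with adjusted p between 2.72e-12 and 2e-08 in edgeR. Scg3 differed by 0.31 ± 0.079 with BMS-21 (adjusted p = 0.00536, edgeR) and 0.31 ± 0.079 with GLP-1 (adjusted p = 0.00712, edgeR). Pcsk2 differed by 0.29 ± 0.046 with BMS-21 (adjusted p = 8.91e-06, edgeR) and 0.24 ± 0.046 with GLP-1 (adjusted p = 0.000154, edgeR). Chgb was at the edge: its difference was 0.21 ± 0.071 with BMS-21 (adjusted p = 0.0357, edgeR; 2.09e-07 with the block) and 0.18 ± 0.071 with GLP-1 (adjusted p = 0.091, edgeR; 1.21e-05 with the block). Leaving out any 1 of 8 libraries, replicates 1 and 3 with BMS-21 or replicates 3 and 4 of Control at 6 h, or replicates 3 and 4 with BMS-21 or replicates 1 and 2 of Control at 1 h, ended the call for BMS-21, with adjusted p up to 0.0834. Without GLP-1 replicate 4 at 6 h the Chgb difference with GLP-1 passed, at 0.21 (adjusted p = 0.0317, edgeR). Scg5 gave -0.086 with BMS-21 (adjusted p = 0.501, edgeR; 0.0437 with the block) and -0.060 with GLP-1 (adjusted p = 0.682, edgeR). The blocked fit called 14.8% of all genes higher and 14.6% lower with BMS-21, and 12.4% higher and 13% lower with GLP-1. The Control libraries enter both responses, so the agents' differences are not independent. The Control change from 1 h to 6 h is subtracted within each difference, so a fall in Control cells raises it. A higher response at 6 h therefore need not be a higher level: Scg3 with BMS-21 averaged 634 CPM at 6 h and 682 CPM at 1 h.

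BMS-21 and GLP-1 were set against each other at unequal doses, 1 µM and 100 nM, and no gene of the 7 differed between them without the block at either time. In that fit 2 of 12629 genes differed at 6 h, which is 0.0158%, where 800 genes had an unadjusted p under 0.05, edgeR called 2 genes and DESeq2 called 18. At 1 h 0 of 12672 differed, where 432 genes had an unadjusted p under 0.05, edgeR called 0 genes and DESeq2 called 0. Among the 7 genes, 3 had an unadjusted p under 0.05 at 6 h and 1 had at 1 h, and edgeR and DESeq2 called none of them. The greatest difference was that of Scg2 at 6 h, 0.14 ± 0.032 on the log2 scale (95% interval 0.070 to 0.20; adjusted p = 0.232, limma). All 4 BMS-21 libraries were above all 4 GLP-1 libraries for Scg2, a pattern that 1.81% of all genes had. The authors' deposited table gave Scg2 a log2 fold change of -0.12 in the direction GLP-1 over BMS-21, with an adjusted p of 0.0462. In DESeq2, run here on the recovered reads, the adjusted p of Scg2 was 0.0534. Pam also separated the agents at 6 h without overlap, by 0.091 ± 0.029 (95% interval 0.031 to 0.15; adjusted p = 0.568, limma).

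When the replicate number was taken as a block, 2 of the 7 genes were higher with BMS-21 than with GLP-1 at 6 h, Scg2 (adjusted p = 0.00013, limma) and Pam (adjusted p = 0.012, limma). That fit called 0.768% of all genes higher and 0.95% lower. At 1 h it called Pcsk2 higher by 0.062 (adjusted p = 0.0125, limma) and Scg5 lower, at -0.066 (adjusted p = 0.00923, limma), against 0.221% of all genes higher and 0.45% lower. All 4 BMS-21 libraries were above all 4 GLP-1 libraries for Pcsk2 at 1 h, a pattern that 1.24% of all genes had. Pcsk2 at 6 h differed by 0.10 ± 0.039, with an adjusted p of 0.693 without and 0.209 with the block in limma. That value came mostly from replicates 3 and 4, which gave 0.19 (adjusted p = 0.0381, limma), against 0.020 in replicates 1 and 2. Vgf, the gene with the highest fold with each agent at 6 h, differed between them by -0.040 at 6 h (95% interval -0.11 to 0.034) and -0.050 at 1 h (95% interval -0.11 to 0.012). Scg5 was at -0.10 at 6 h (95% interval -0.22 to 0.026; adjusted p = 0.848, or 0.0646 with the block, limma). For Scg3 and Chgb the intervals at 6 h were -0.076 to 0.17 and -0.087 to 0.12. At 1 h the remaining differences were 0.054 for Scg2 (95% interval -0.020 to 0.13), 0.044 for Scg3 (-0.030 to 0.12), 0.038 for Pam (-0.022 to 0.10) and -0.016 for Chgb (-0.10 to 0.071).

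**Figure D4:**
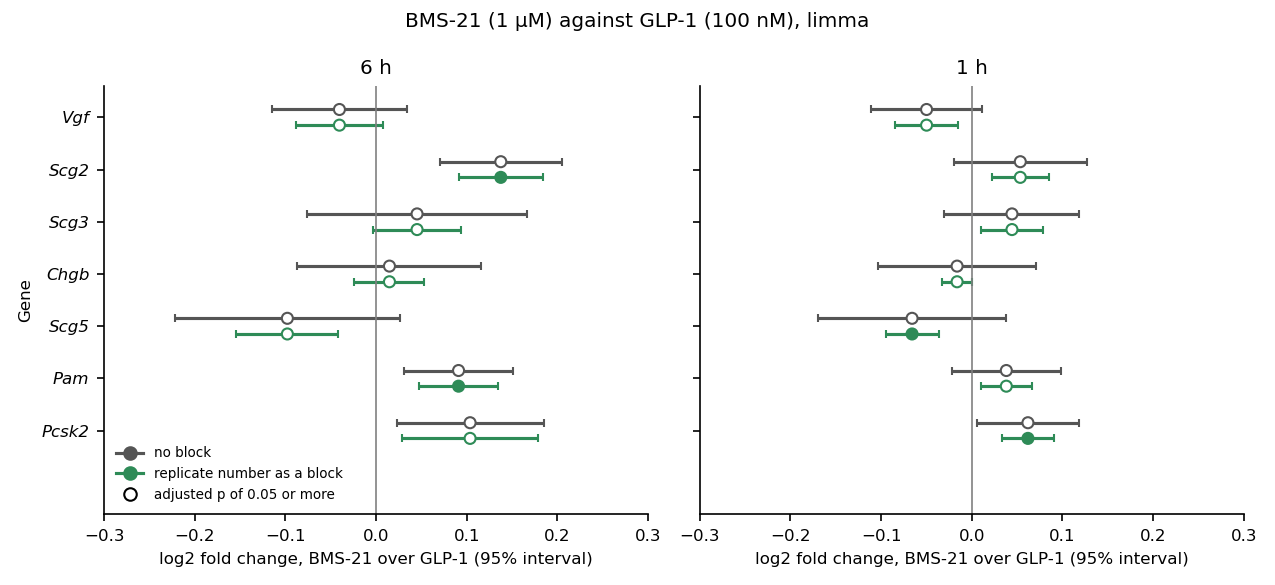
Log2 fold change of BMS-21 over GLP-1 with 95% intervals, at 6 h on the left and 1 h on the right, without a block in grey and with the replicate number as a block in green; filled circles have an adjusted p under 0.05 in limma. Filled green circles mark Scg2 and Pam at 6 h and Scg5 and Pcsk2 at 1 h, and no grey circle is filled.

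Other genes of the pathway were taken from 3 lists and are described by counts. At 6 h without the block, 16.8% of all genes rose and 16.8% fell with BMS-21, and 16.2% and 15.6% with GLP-1. These shares are to be read beside the counts of all 3 lists. Of the other cargo and granule membrane proteins, 25 of 26 listed had a row and 16 or 17 passed the filter on low values. With BMS-21 at 6 h, 9 rose and 1 fell of 16 (median log2 change 0.25), and with GLP-1 at 6 h, 10 rose and 1 fell of 17 (median 0.25). One of these 10 is the proenkephalin gene Penk, which passed the filter only through the GLP-1 libraries; without it 9 rose and 1 fell of 16 (median 0.23). With the replicate block 11 rose and 1 fell with BMS-21, and 12 rose and 2 fell with GLP-1. Those fits called 19.8% of all genes higher and 19.8% lower with BMS-21, and 21.5% higher and 20.7% lower with GLP-1. The genes that the block added were the vesicular monoamine transporter Slc18a1 with each agent, the calcium-binding protein Nucb1 with BMS-21 and, with GLP-1, the amylin gene Iapp and, lower at -0.062, the granule membrane phosphatase Ptprn2, all named after their values were seen. Ptprn, a receptor-like phosphatase of the granule membrane, changed by 0.75 ± 0.035 with BMS-21 (adjusted p = 2.33e-13, limma) and 0.71 ± 0.037 with GLP-1 (adjusted p = 7e-12, limma). The tachykinin precursor Tac1 rose by 1.41 with each agent, and the CART precursor Cartpt by 1.00 with BMS-21 and 1.22 with GLP-1. The cholecystokinin precursor Cck rose by 1.49 with BMS-21. It also rose with GLP-1, by 1.44 (adjusted p = 9.76e-06, limma), a value named after it was seen. The granule membrane electron carrier Cyb561 rose by 0.39 with GLP-1. Names differ between the agents because only the genes with the smallest adjusted p were named for each. The member that fell with each agent without the block was Slc30a8, the granule zinc transporter, at -0.23 with BMS-21 and -0.25 with GLP-1; it was named after its values were seen. Penk, also named after its values were seen, had few reads, with a mean normalised count of 24.3 with GLP-1 and 2.42 in Control cells; since its high group took it past the filter, its change is not read as a result.

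At 1 h, 2 of the 16 cargo and membrane genes tested rose with BMS-21, Tac1 (0.57) and Ins1 (0.10), and 4 rose with GLP-1, Tac1 (0.64), Cartpt (0.50), the vesicular monoamine transporter Slc18a2 (0.33) and Ptprn (0.11). Ins1 has the close copy Ins2, and how reads were split between them is uncertain. Without the block, 3.54% of all genes rose at 1 h with BMS-21 and 4.17% with GLP-1. With the replicate block 10 of the cargo and membrane genes rose with BMS-21 and 6 with GLP-1 at 1 h. That fit called 6.7% of all genes higher with BMS-21 and 6.74% with GLP-1. The block also called 4 of the cargo and membrane genes higher with BMS-21 than with GLP-1 at 1 h, Iapp, Ins1, Ins2 and Slc18a1. At 6 h it called Slc18a1 higher. These genes were named after their values were seen. Blocked fits of BMS-21 against GLP-1 called 0.221% of all genes higher at 1 h and 0.768% at 6 h. In Control cells 2 of the cargo and membrane genes were higher and 9 lower at 6 h than at 1 h, led by Tac1 at -1.54 in edgeR. Over all genes, 26% were higher and 26.9% lower. With the block 3 of the cargo and membrane genes were higher and 11 lower, against 29% of all genes higher and 29.7% lower. Penk is among those lower.

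The list of other processing enzymes and their inhibitors had 11 genes tested of 14 listed. At 6 h, 5 rose and 4 fell with BMS-21 (median 0.077), and 4 rose and 1 fell with GLP-1 (median 0.086). The convertase Pcsk5 rose by 1.07 ± 0.11 with BMS-21 (adjusted p = 8.26e-08, limma) and 1.05 ± 0.11 with GLP-1 (adjusted p = 2.59e-07, limma). The convertase Pcsk6 moved the other way, at -0.32 with BMS-21 and -0.20 with GLP-1. The lysosomal protease Ctsb rose by 0.18 with BMS-21 and 0.15 with GLP-1, and the carboxypeptidase Cpd by 0.16 and 0.14 in the same order. The count that fell with GLP-1 was 3 with the replicate block, a fit that called 20.7% of all genes lower, which added Mbtps1 and Pcsk4, named after their values were seen, and 4 when libraries were scaled by their totals. At 1 h none of the 11 passed with either agent, with or without the block.

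Genes of granule biogenesis, sorting and acidification numbered 16 tested of 17 listed. At 6 h, with BMS-21 10 rose and 0 fell (median 0.16), and with GLP-1 11 rose and 0 fell (median 0.16). Atp6v0a1, a subunit of the proton pump that acidifies granules, rose by 0.35 ± 0.032 with BMS-21 (adjusted p = 1.48e-08, limma) and 0.31 ± 0.032 with GLP-1 (adjusted p = 1.73e-07, limma). Ica1, an islet autoantigen of the Golgi and immature granules, rose by 0.31 with BMS-21 and 0.30 with GLP-1, and Arfip2, an arfaptin of the same compartment, by 0.31 and 0.33 in the same order. Further names by adjusted p were the proton pump accessory subunit Atp6ap1 with BMS-21 (0.19) and the granule maturation factor Hid1 with GLP-1 (0.19). With the replicate block Vps51 was called lower with BMS-21 at 6 h, and at 1 h Ica1 rose with BMS-21 and Hid1 with GLP-1, all named after their values were seen. Without the block none of the 16 passed at 1 h.

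**Figure D5:**
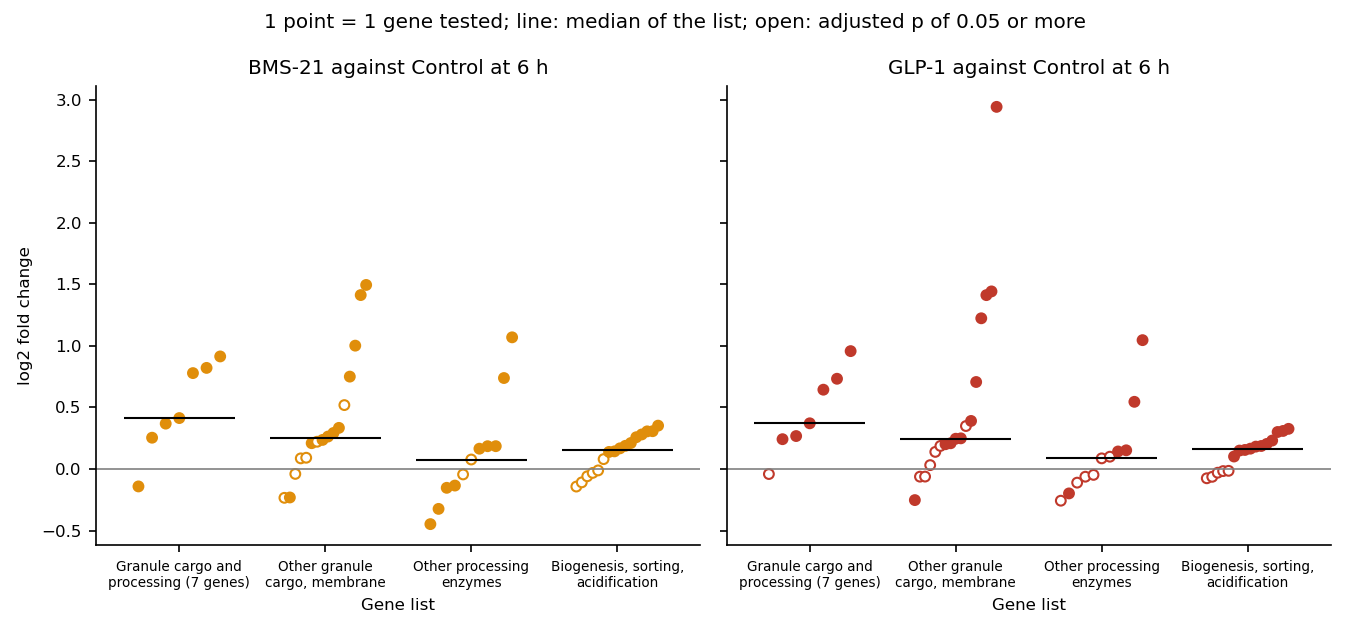
Log2 fold change at 6 h of the 7 genes and of each gene tested in the 3 lists, with BMS-21 on the left and GLP-1 on the right; the line is the median of the list, and open circles have an adjusted p of 0.05 or more. The medians with BMS-21 were 0.41 for the 7 genes, 0.25 for other cargo and membrane proteins, 0.077 for other enzymes and 0.16 for biogenesis.

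In the test of the response at 6 h against 1 h, 8 cargo and membrane genes were higher and 1 lower with each agent. Ptprn, named by its adjusted p and not by the size of its change, was at 0.67 with BMS-21 and 0.59 with GLP-1 in edgeR. Penk is among the 8 with each agent, and its reads were highest in the 6 h libraries with an agent. Its change is not read as a result here either. Over all genes, the test called 10.8% higher and 10.9% lower with BMS-21, and 8.3% and 9.01% with GLP-1. With the block 11 were higher and 1 lower with BMS-21, and 11 higher and 2 lower with GLP-1. Of the biogenesis genes, 7 were higher with BMS-21 and 5 with GLP-1, against 9 with BMS-21 and 10 with GLP-1 when the block was used. The blocked fit called 14.8% of all genes higher and 14.6% lower with BMS-21, and 12.4% and 13% with GLP-1. Of the other enzymes, 3 were higher and 1 lower with BMS-21, and 2 were higher and 0 lower with GLP-1, with Pcsk5 first at 0.90 with BMS-21 and 0.96 with GLP-1; the block gave 5 higher and 2 lower with BMS-21.

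Patterns most like those of single genes were sought by Pearson's r over the 6 group means of log2 CPM, as a description with no test. Genes ran alongside Vgf in the order Stc1 (r = 0.997), Rundc1, Tvp23b, Wdr1 and Nudt22 (r = 0.993). For Scg2 they were Golph3 (r = 0.994), Resp18, Ntrk2, Dusp5 and Adamts14 (r = 0.985). Pam and Pcsk2 were added after their values were seen, since Pcsk1 had no row. Next to Pam stood Fn1 (r = 0.999), Dner, Pitpnc1, Bcat2 and Ecel1 (r = 0.996), and next to Pcsk2 stood Ergic3 (r = 0.993), Ntrk2, Gpaa1, Spock1 and Epha8 (r = 0.984). With 6 means that share libraries and time points, high values of r are easily reached.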

How the data were processed

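Libraries were made with a TruSeq RNA kit from INS-1 total RNA, per the labels' protocols. The submitters' processing notes name TopHat2 2.0.12, Bowtie2 2.2.3.0, SAMtools 0.1.19.0, Subread, DESeq, DESeq2 1.6.3 and the build Rnor_5.0, without their roles. The authors deposited 6 tables, each with 8 libraries of 2 groups, holding normalised counts (read counts divided by a library factor, used here as signal values), a log2 fold change and an adjusted p-value. All normalised values were whole multiples of 1 step per library (tolerance 0.001), and the whole-read counts so recovered were the same in both tables of each library; CPM was computed from them. No 2 libraries of a group agreed within sampling noise (chi-square over its degrees of freedom of 1.28 or more). 18465 of 26404 rows had a symbol, and no column of other samples was present.

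Agents were compared with limma 3.58.1 (R 4.3.3; trend and robust) on log2(normalised count + 1) for genes averaging 10 or more over the 8 libraries of a table, with Benjamini-Hochberg adjustment over all genes and a threshold of 0.05. A fold change is on this scale. Time and interaction tests used edgeR 4.0.16 (TMM, filterByExpr, quasi-likelihood) on the recovered reads; DESeq2 1.42.0 was an alternative. The limma fit without a block and the edgeR interaction test were tried on simulated data, for GLP-1 only. The simulated data held no difference between replicate numbers. The blocked fits, DESeq2 and the Control time test were not tried in this way.

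Same-numbered libraries correlated in their deviations from group means, by 0.125 to 0.425 over 24 pairs within a time and 0.150 to 0.375 over 12 pairs across times. Replicate numbers, taken from the labels' titles, were therefore used as a block in an alternative fit of every comparison. The main fits had no block and so did not use this pairing. The first component of the deviations held 26.9% of their variance over 10799 genes and separated replicates 1 and 2 from 3 and 4. What the numbers stand for is not given in the sources used here.

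All 7 genes with a row are named; of each list, up to 4 genes past the threshold with the smallest adjusted p; and the 5 genes of most similar pattern, among those with a mean of at least 50 reads. The genes and lists were chosen with earlier results of these data known. No gene lengths were used, so levels are not compared between genes.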

Additional observations from a re-analysis of the deposited data

Results flagged for a closer look

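In the edgeR interaction test, the response at 6 h was above that at 1 h for 6 of 7 genes with BMS-21. The same held for 5 of 7 genes with GLP-1. Over all genes, 10.8% were higher and 10.9% lower with BMS-21, and 8.3% and 9.01% with GLP-1. Both agents share the Control libraries, so the counts are not independent. With BMS-21 the log2 differences, response at 6 h minus response at 1 h, were 0.74 for Pam, 0.65 for Vgf, 0.50 for Scg2, 0.31 for Scg3, 0.29 for Pcsk2 and 0.21 for Chgb. With GLP-1 they were 0.69 for Pam, 0.64 for Vgf, 0.41 for Scg2, 0.31 for Scg3 and 0.24 for Pcsk2. Apart from Vgf, each of these genes was lower in Control cells at 6 h than at 1 h. That fall is subtracted within each response difference and raises it, so it is not a separate result. No library stood far from the other 3 of its group by Dixon's criterion in 42 groups of 4 libraries, where chance gives about 1 in 20.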

How the results depend on the processing

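Vgf, Scg2, Scg3, Chgb, Pam and Pcsk2 at 6 h, and Vgf and Scg2 at 1 h, kept their direction and passed with both agents under every alternative run: pseudocounts of 0.5 and 5, a minimum mean of 50 or none, TMM or library totals, edgeR, DESeq2, the replicate block, each library left out, and either pair of replicates alone. When libraries were scaled by their totals (all-gene median down to -0.059), the counts made Scg5 the 1 gene lower with GLP-1 at 6 h. The fall of Scg5 with BMS-21 at 6 h gave a count of 0 with no filter on low values, and 0 to 1 over the libraries left out. With the replicate block, the counts became 6 higher and 1 lower with BMS-21 at 1 h, and 3 higher with GLP-1 at 1 h. For BMS-21 against GLP-1 they became 1 higher and 1 lower at 1 h and 2 higher at 6 h. For the response at 6 h against 1 h they became 6 higher and 1 lower with BMS-21, and 6 higher with GLP-1. The pairing of replicates ended no call among the 7 genes. Replicates 3 and 4 alone gave 2 higher for BMS-21 against GLP-1 at 6 h.

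Directions that turned were all of small differences. With GLP-1 at 1 h, library totals gave -0.019 for Scg5 and -0.014 for Pcsk2, replicates 3 and 4 alone gave -0.0016 for Scg5, and leaving out 1 library gave -0.019 to 0.049 for Scg5. For BMS-21 against GLP-1 at 6 h, replicates 3 and 4 alone gave 0.022 for Vgf, replicates 1 and 2 alone gave -0.016 for Chgb, and leaving out 1 library gave -0.0042 to 0.090 for Scg3 and -0.024 to 0.050 for Chgb. At 1 h leaving out 1 library gave -0.051 to 0.010 for Chgb. The cause was not tested in any of these. List counts under the same alternatives were added after seeing the data. Each gene had at least 5097 reads in every library, and each group had 4 libraries.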
